A study of Glycine max with 4 samples.

Results

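Chromosome 13 of soybean (Glycine max) held 3273 of the 44959 shared sites that an antibody against the product of GLYMA.13G317000 enriched in embryo chromatin. The members are all peaks that the authors' lists place on chromosome 13, 3537 in ChIP replicate 1 and 4454 in ChIP replicate 2. A shared site is a pair of peaks, 1 from each replicate, with at least 1 bp in common and no larger overlap elsewhere, and its position is the midpoint of both summits. The locus name places the gene of the precipitated protein on this chromosome. Its position was not analysed here because no annotation of the files' build was used. The rule that defines the members uses position only.

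Mid-maturation embryos of Williams 82, a soybean cultivar, were taken from seeds of 200 to 250 mg and gave 2 ChIP and 2 input samples. The ChIP samples were precipitated with 2 µg of an antibody against a peptide of amino acids 1 to 15 of the protein, while input chromatin received no antibody. All samples were crosslinked for 10 minutes in 1% formaldehyde, sheared to 100 to 500 bp and amplified by 15 cycles of PCR. No sample without the protein was part of the series, so how specific the antibody is cannot be judged from it. The series' design calls the replicates biological replicates, and nothing further says how the embryos were pooled. Each ChIP sample has its own peak list, and the input samples enter here only as members of the design.

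Chromatin immunoprecipitation recovers the DNA fragments that lie close to a protein in the crosslinked nucleus, and a peak is a stretch where these fragments pile up over their local background. In general, soybean chromosomes carry most of their genes towards both ends, with a repeat-rich and gene-poor region around the centromere. Mid-maturation is the phase in which the embryo lays down storage protein and oil. Gene content, repeats and the ease of aligning reads along the chromosomes were not measured here, and their part in the densities below was not tested.

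The fold enrichment of a peak, a value of the authors' peak caller, is the read pileup at the summit over the local background. The strength of a shared site is the geometric mean of its 2 folds. Replicate 1 peaks of chromosome 13 had a median pileup of 31 reads, ranging from 13 to 310, and those of replicate 2 a median of 32, ranging from 12 to 317. The median background was 3.47 and 3.35 reads. With median widths of 427 and 383 bp, the peaks covered 3.64% of the chromosome's span in replicate 1 and 4.13% in replicate 2, beside 2.38% and 2.75% over all 20 chromosomes. Intervals on counts and shares below are 95% intervals that cover counting error only.

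Chromosome 13 had more shared sites per Mb than any of the other 19 chromosomes. Its 3273 sites over a span of 45.8 Mb gave 71.4 per Mb (95% Poisson interval 69.0 to 73.9), against 45.9 per Mb (45.5 to 46.4) over the other 19 together, a ratio of 1.56. The chromosome made up 4.83% of the span and 7.32% of the sites on chromosomes. Among the others, density ran from 36.6 per Mb on chromosome 18 to 65.5 per Mb on chromosome 11, with a median of 44.1. The first place held in each list alone, with 77.2 peaks per Mb in replicate 1 and 97.2 in replicate 2, against at most 70.2 and 88.5 on another chromosome. The chromosome was chosen with its density known, so its place in the order is a description and carries no test.

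Chromosome 13 had a smaller share of sparse bins and fuller remaining ones than the others, and its median spacing differed less than its mean spacing. Sparse bins, defined as bins of 1 Mb with under 10 shared sites, made up 7 of 46 bins (15.2%) on chromosome 13. On the others they made up 239 of 910 bins (26.3%), from 15.7% on chromosome 9 to 35.8% on chromosome 4. Chromosomes 9 and 11 (17.1%) were thus near chromosome 13 in this share. The remaining bins held a median of 94 sites on chromosome 13, against a median between 25 and 84 on each of the other chromosomes. Bins with at least 100 sites made up 41.3% of chromosome 13 and 15.9% of the others. Its densest bin, with 147 sites, was exceeded on 3 other chromosomes, and the densest bin of all held 166. Neighbouring sites lay a median of 6413 bp apart on chromosome 13 and 7084 bp on the others, with means of 13955 and 21759 bp. A shorter median spacing than on chromosome 13 was found on 3 other chromosomes.

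The difference in spacing was widest at the long end. On chromosome 13, 10% of the intervals between neighbours were under 1202 bp, against 1273 bp on the others, while 10% exceeded 27420 bp, against 39898 bp on the others. Intervals over 100 kb numbered 37 of 3272 (1.13%) on chromosome 13 and 1489 of 41428 (3.59%) on the others. Of 459 windows of 100 kb, 71 (15.5%) had no shared site, the lowest share of any chromosome, and on the others it ran from 20.1% to 34.9%.

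**Figure D1:**
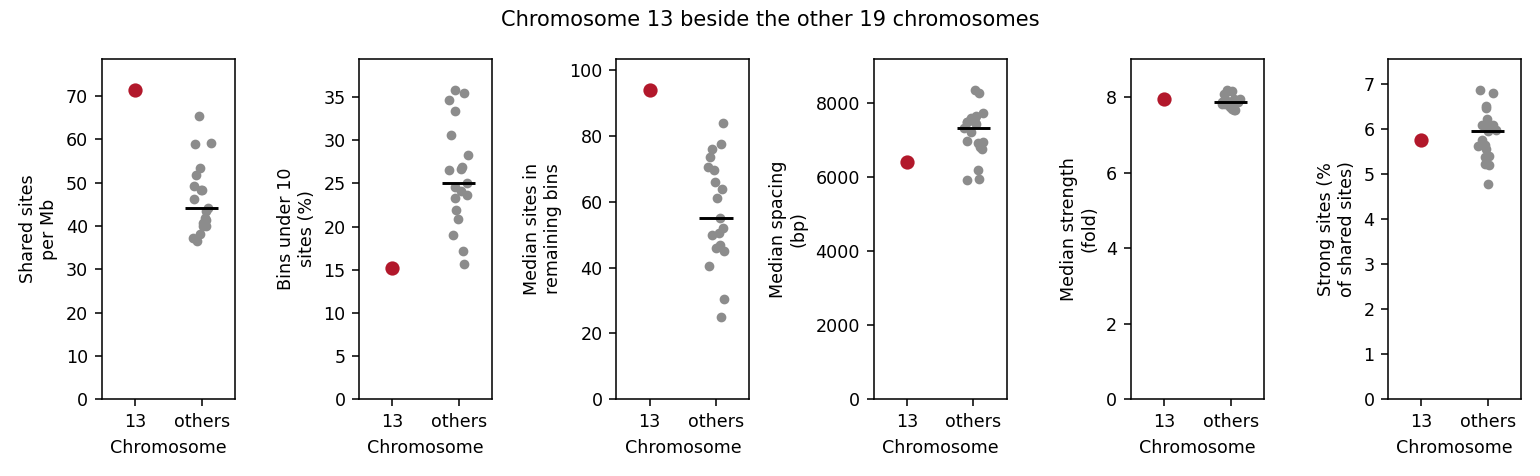
Each panel plots 1 measure of shared sites for chromosome 13 (red point, left) and the other 19 chromosomes (grey points, right, bar at their median). Chromosome 13 lies outside the range of the others for sites per Mb (71.4). The same holds for the percent of 1 Mb bins under 10 sites (15.2%) and the median of the remaining bins (94 sites). It lies inside that range for median spacing, median strength and the percent of strong sites.

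Along the chromosome, density was low in the first 20% of the span and high towards the end. In steps of 20% it was 7.31, 42.3, 92.3, 101 and 114 shared sites per Mb from start to end. The first step was sparser than on each other chromosome, where it ran from 30.4 to 130. The middle step was denser than on each other chromosome, where it ran from 3.92 per Mb on chromosome 4 to 22.6 on chromosome 8. The step after the middle was also denser than on the others, whose highest value was 59.4 on chromosome 20. The last step did not stand apart, since chromosomes 3 and 19 had more, up to 115 per Mb.

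The middle 20% had 1.52 times the density of the first and last 20% combined. Replicate 1 alone gave 1.49 and replicate 2 alone 1.55. The ratio exceeds 1 because the first 20% was sparse, with 7.31 sites per Mb. At 92.3 per Mb, the middle was less dense than the last 20%, with 114 per Mb. The counts of the replicates per bin had a Spearman correlation of 0.992 over the 46 bins of chromosome 13. These bins share the genome and its alignability, so the value describes how alike the replicates' profiles were.

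**Figure D2:**
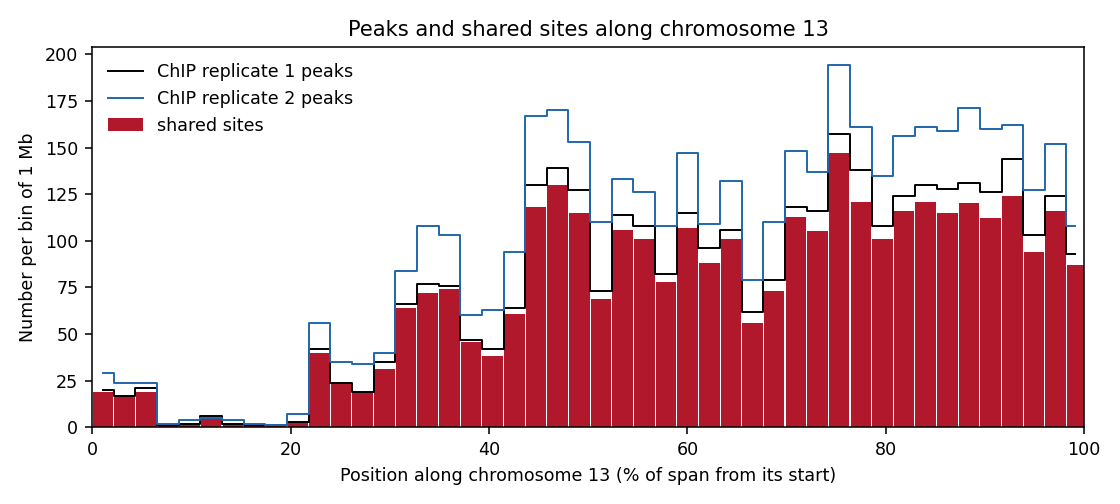
Bars give shared sites and lines give the peaks of ChIP replicates 1 and 2 in bins of 1 Mb (the last bin is shorter), against position along chromosome 13 in percent of its span. Both replicates trace the same profile, with under 10 shared sites in each of 7 neighbouring bins near the start and a highest bin of 147 shared sites.

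**Figure D3:**
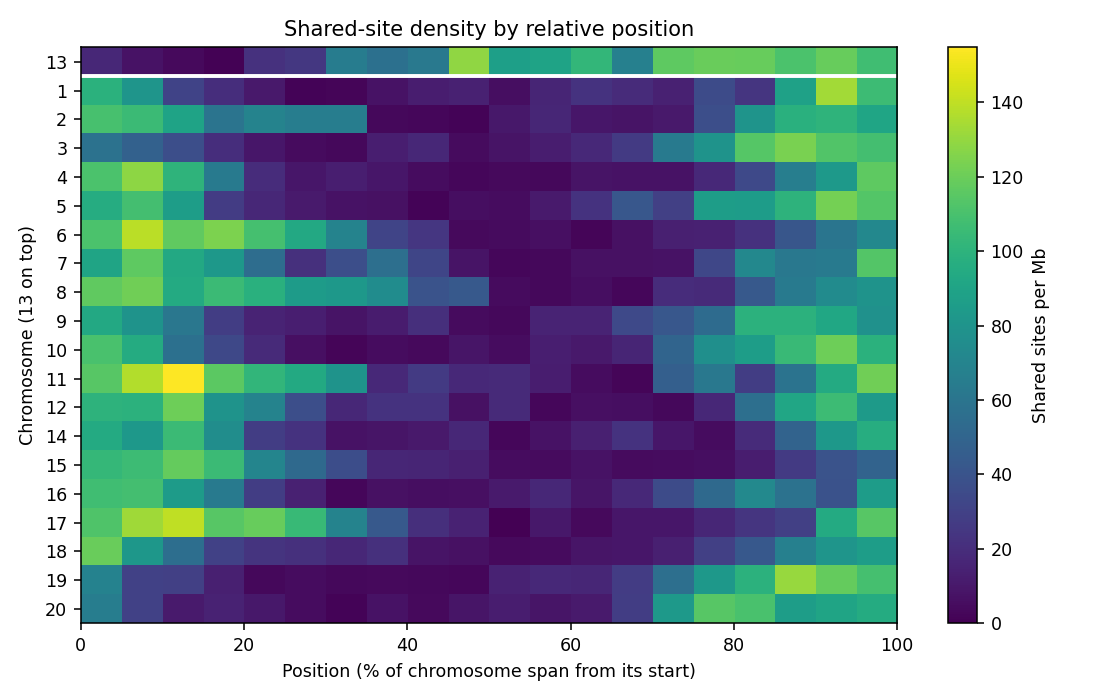
Colour gives shared sites per Mb in steps of 5% of each chromosome's span, with chromosome 13 in the top row. The dark, sparse stretch lies near the start on chromosome 13, where the step from 15% to 20% held 0.873 sites per Mb, and away from both ends on the other 19.

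The first 3 Mb held 55 shared sites, or 18.3 per Mb (95% Poisson interval 13.8 to 23.9). The first bins had 19, 17 and 19 shared sites, from 20, 17 and 21 peaks in replicate 1 and 29, 24 and 24 in replicate 2. From 3000001 to 10000000 there were 15 shared sites, or 2.14 per Mb (1.20 to 3.53). No stretch of 7 neighbouring bins on the other chromosomes held fewer, and the closest was 16 sites on chromosome 2. This length was taken from chromosome 13 itself. Unbroken stretches of sparse bins were longer on 9 other chromosomes, up to 17 bins on chromosome 19. The stretch was centred at 14.2% of the span, while the sparsest stretch of the same length lay between 27.3% and 70.6% of the span on the other chromosomes. Beyond it the count was 40 in the bin from 10000001 to 11000000, and the zone from 10000001 to 20000000 had 46.9 per Mb (42.8 to 51.3). From 20000001 to the end there were 2734 sites, 83.5% of the chromosome's total, or 106 per Mb (102 to 110). These zone limits were set after the profile was seen.

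With a limit of 50 shared sites per bin, the dense part ran on without a break. From the bin at 19000001 to the end of the chromosome, 27 neighbouring bins each held at least 50 shared sites. On the other chromosomes the longest such stretch was between 8 and 18 bins. The limit was not varied and lies just under the lowest count of the stretch, 56, so a limit above 56 would split the stretch. Within the stretch, counts ranged from 56 in the bin from 30000001 to 31000000 to 147 in the bin from 34000001 to 35000000. The next highest bins were those starting at 21000001 with 130 sites, 42000001 with 124, and 35000001 and 38000001 with 121 each. In the bin with 147 sites, replicate 1 had 157 peaks and replicate 2 had 194.

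The sparse zone was thinly filled in both lists. Replicate 1 had 16 peaks there and replicate 2 had 25. Of these, 15 of 16 (93.8%, Wilson interval 71.7 to 98.9) and 15 of 25 (60.0%, 40.7 to 76.6) had a partner. The shares of the whole chromosome, 92.5% and 73.5%, lie inside these intervals. Folds of the 15 shared sites ran from 3.91 to 13.6 in replicate 1 and from 4.44 to 18.3 in replicate 2, on pileups of 16 to 56 and 16 to 73 reads. Replicate 2 had the higher fold at 12 of the 15 (80.0%), beside 79.3% on the whole chromosome. Their median strength was 6.77, against 8.58 in the first 3 Mb, 7.95 from 10 to 20 Mb and 7.94 beyond 20 Mb. Their interquartile range was 5.23 to 7.88, against 5.76 to 12.5 beyond 20 Mb, and its upper end lay below the medians of the other 3 zones. The zone limits were set on the profile, so this difference in strength was not tested.

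The strongest site of the sparse zone was at 9773353 to 9773977, with 56 reads and a fold of 13.6 in replicate 1 (counting interval 10.3 to 17.6) and 73 reads and a fold of 18.3 in replicate 2 (14.4 to 22.9). A second site lay just beside it at 9775418 to 9775726, with 30 and 24 reads. Other near neighbours were found at 6010652 to 6011043 and 6012789 to 6013097, where the first had folds of 10.3 in both replicates. The sites at 9773353 and 6010652 were the only 2 of the zone with a fold of 10 or more in both lists. A lone site at 7328818 to 7329077 had 23 and 31 reads and folds of 5.99 and 5.11. This lone site lay between the empty intervals of 1.32 and 1.26 Mb described below.

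The 3 longest intervals without a shared site all lay in this zone. The first, of 1.56 Mb, began at the site with summits around 3068506 and ended at 4627551. No replicate 1 peak and 2 replicate 2 peaks fell inside it. The next ran from 6012892 over 1.32 Mb with 0 and 3 peaks, and the third followed it directly over 1.26 Mb with none in either list. On the other chromosomes the longest interval ran from 0.867 Mb on chromosome 8 to 2.83 Mb on chromosome 20, and 6 of them had a longer one than chromosome 13.

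Strengths on chromosome 13 lay within the range of the other chromosomes. The median strength was 7.94 on chromosome 13 and 7.92 on the other 19 chromosomes, with interquartile ranges of 5.75 to 12.5 and 5.77 to 12.1, and single chromosomes had medians of 7.64 to 8.19. The strongest 10% began at 18.8 and 18.6. Over the 39 bins with at least 10 sites, the median strength per bin lay between 6.89 and 10.1. Its Spearman correlation with the number of sites in the bin was −0.12, a description over bins that differ in how many sites stand behind each median.

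Strong sites, with a fold of at least 20 in both lists, numbered 188 on chromosome 13. That is 5.74% of its shared sites, beside 5.88% of all shared sites in the series and 4.78% to 6.87% on the other chromosomes. Because sites were many, strong ones were too, with 4.10 per Mb on chromosome 13 against 1.78 to 3.90 on the others. At the limit, the last site inside had folds just above 20 and of 30.3 at 43768426 to 43768947, and the first outside had 19.98 and 27.6 at 22515691 to 22516144. With the limit at 15 there were 389 such sites, and at 30 there were 60. Replicate 1 alone had 196 peaks at or above 20 and replicate 2 had 418. Since both folds had to pass, the number of strong sites was set mostly by replicate 1.

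Strong sites were spread over 36 of the 46 bins, with at most 10 in a bin. The sparse zone had none, which its 15 sites cannot set apart from the general share (0 of 15, Wilson interval up to 20.4%). The longest interval between strong sites, 7.63 Mb, spanned this zone. Before it lay 2 strong sites, at 633863 to 634469 with folds of 27.1 and 28.4, and at 2558571 to 2559396 with folds of 32.3 and 37.1. After it the first was at 10193600 to 10194198, with folds of 31.2 and 33.6. Of the 187 intervals between neighbouring strong sites, 49 were at most 50 kb and the median was 122 kb.

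**Figure D4:**
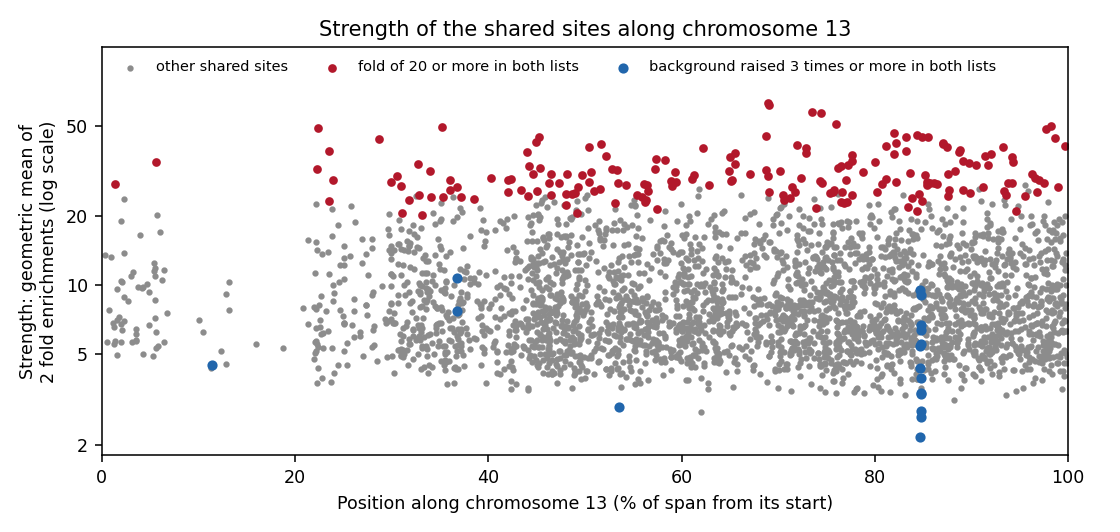
Each point is a shared site of chromosome 13, with its position in percent of the span and its strength (geometric mean of 2 folds, log scale). Red marks the 188 strong sites and blue the 17 sites with a raised background. The median strength was 8.58 in the first 3 Mb, 6.77 at the 15 sites of the sparse zone, 7.95 from 10 to 20 Mb and 7.94 beyond 20 Mb.

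The 2 strongest sites of the chromosome lay close together and each had a strong neighbour. The first, at 31605606 to 31606380, had 239 reads and a fold of 60.3 in replicate 1 (counting interval 52.9 to 68.4) and 254 reads and a fold of 65.3 in replicate 2 (57.6 to 73.8). A site 866 bp away, at 31604563 to 31605209, had folds of 30.9 and 29.2, and this was the closest pair of strong sites on the chromosome. The second strongest, at 31638862 to 31639582, had 310 and 317 reads. Its folds were 73.9 and 50.8 over backgrounds of 3.21 and 5.26 reads, so that the folds differed more than the reads did. Beside it, 1312 bp away, the site at 31640164 to 31640824 had folds of 20.5 and 32.1. Both neighbours were picked after their values were seen. The bin around them, from 31000001 to 32000000, held 73 sites and was among the thinner ones of the dense part.

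The next site in strength, at 33664233 to 33665050, had folds of 57.0 and 57.6 on 252 and 277 reads. Only 4 other shared sites lay within 50 kb of it. The fourth, at 34086274 to 34087140, had folds of 59.6 and 53.9 and 16 other sites within 50 kb. Strong sites thus stood both in thin and in crowded surroundings. The fifth was at 34803922 to 34804571 with folds of 46.3 and 56.0, and the sixth at 45015862 to 45016611, close to the chromosome end, with folds of 47.8 and 52.2.

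The seventh and eighth strongest sites stood outside the dense part. The site at 16142494 to 16143283 had folds of 50.8 and 48.1 on 238 and 254 reads. The site at 10237594 to 10238252 lay just past the sparse zone and had folds of 45.5 and 52.8 on 180 and 201 reads. The ninth, at 44762059 to 44763371, had folds of 54.1 and 42.7, and the tenth, at 37560189 to 37561222, had 43.6 and 48.9. All 10 were among the strongest 131 of the series' 44959 shared sites. Chromosome 13 carried 7.32% of the sites on chromosomes, and 10 of 131 is near that share. At none of these 10 sites did the summit pileups differ between replicates at an adjusted p of 0.05 or less (exact binomial test, Benjamini-Hochberg over all shared sites). Summits of both replicates lay between 7 and 27 bp apart.

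The share of sites in close runs was near that of the whole series. A run was taken as 5 or more shared sites with at most 5 kb between neighbours. Chromosome 13 had 70 runs with 425 sites, 13.0% of its sites, beside 12.5% of all shared sites and 8.76% to 16.4% on the other chromosomes. Only chromosome 6 had more runs, with 71. The number depended on the limits, with 10 runs at gaps of at most 2 kb, 183 at 10 kb, and 179 among the peaks of replicate 2 alone. Most were short, since 28 had 5 sites and 22 had 6. Sites in runs had a median strength of 7.49 and 5.41% were strong, against 7.95 and 5.79% outside runs.

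Both of the largest runs had 11 sites. The first ran over 13.2 kb, from the site at 21180243 to the site ending at 21193660, with folds of 3.51 to 21.4 in replicate 1 and 4.44 to 36.6 in replicate 2. Its strongest member, at 21185767 to 21186268, was the only strong one, with 84 and 139 reads, and 7 of the others had under 40 reads in both replicates. The second ran over 19.5 kb, from 34666453 to 34686290, with a higher median strength of 10.6 against 7.01 in the first. Its strongest member, at 34677095 to 34678034, had folds of 21.8 and 29.8.

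The 5 runs of 8 sites followed in size. The shortest of them, over 12.9 kb between 32167827 and 32181184, held a site with 191 and 213 reads. Another over 13.6 kb lay between 35068405 and 35082407, with strengths of 3.73 to 23.1. The next, over 14.6 kb between 21731839 and 21746938, had no strong site and a median strength of 6.20. Another, over 15.6 kb, had a median of 5.46 and 1 strong site with a strength of 41.4. The longest, over 20.2 kb between 38805747 and 38826279, was part of the cluster of raised background described below, with all 8 sites raised and a median strength of 3.84. By windows of 100 kb, the highest counts were 21 sites, from 24500001 to 24600000 and from 41300001 to 41400000, and neither window had a strong site. On the other chromosomes the highest window held between 19 and 27 sites.

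Most peaks of chromosome 13 had a partner in the other replicate, and most of those without were weak. In replicate 1, 92.5% of 3537 peaks had one (Wilson interval 91.6 to 93.4), beside 93.3% over the whole list. In replicate 2 it was 73.5% of 4454 (72.2 to 74.8), beside 72.1%. The 264 peaks of replicate 1 without a partner had medians of 4.45 for the fold and 19 for the reads, and the 1181 of replicate 2 had medians of 4.85 and 20. A fold of 10 or more was found at 2 of these peaks in replicate 1 and 14 in replicate 2. Below a fold of 4, 29.6% of the replicate 2 peaks had a partner (25.2 to 34.3), beside 31.1% over the whole list. Between 10 and 20 it was 98.8% (98.0 to 99.3), beside 98.9%. In replicate 1 the shares were 75.1% below 4 and 99.9% between 10 and 20, beside 75.4% and 99.8%.

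In each list the strongest peak without a partner overlapped a peak of the other list all the same. The strongest in replicate 2, at 44682753 to 44683377, had a fold of 44.9 on 181 reads, and its summit lay 80 bp from a replicate 1 summit. Replicate 1 has a single peak of 1695 bp there, from 44682617 to 44684311, where replicate 2 has 2 peaks, and the longer overlap was with the other one. In replicate 1 the strongest, at 24960288 to 24960760, had 89 reads and a replicate 2 summit 5 bp away, inside a peak of 1160 bp. Of the peaks without a partner, 21 in replicate 1 and 54 in replicate 2 overlapped a peak of the other list.

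Fold enrichment was higher in replicate 2, on chromosome 13 as elsewhere. Replicate 2 folds were a median of 1.26 times those of replicate 1 on chromosome 13 and 1.27 times on the others, or 0.33 and 0.34 on the log2 scale, with an SD across sites of 0.43 in both. Replicate 2 had the higher fold at 79.3% of the chromosome's sites, beside 78.4% of all shared sites. After 1 common scaling of the reads, 2 of the 3273 sites (0.0289% of all shared sites were called) were called different in reads by the exact binomial test, with an adjusted p at or below 0.05. At an unadjusted p of at most 0.05 there were 129, or 3.94%, beside 3.84% of all shared sites.

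Both called sites were the split peaks described above. At the pair near 44683442 the summits lay 826 bp apart, with 150 reads in replicate 1 and 84 in replicate 2 (adjusted p = 2.36e-05, exact binomial test). At the pair near 24960886 they lay 738 bp apart, with 41 and 117 reads (adjusted p = 0.00902, exact binomial test). The reads compared there belong to different summits. When pairs were limited to summits at most 100 bp apart, a choice made after the data were seen, none of 3036 sites was called and 118 had an unadjusted p of at most 0.05. Over the whole series, 12 of the 13 called sites had summits more than 100 bp apart.

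Chromosome 13 also stood out in the local background, the divisor of the fold. A background was called raised where it was at least 3 times the lowest of its list in both replicates, the lowest being 2.98 and 2.83 reads. Chromosome 13 had 17 such sites, or 0.519% of its shared sites, beside 0.0734% of all shared sites. The other 19 chromosomes had 16 together, no more than 4 on any one, and 11 had none. With the limit at 2 times the lowest background there were 32, and at 4 times 7. Without the cluster described next, 4 raised sites were left on chromosome 13.

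The cluster comprised 13 raised sites over 58.0 kb, between 38798585 and 38857022. Backgrounds there ran from 10.1 to 20.8 reads in replicate 1, or 3.38 to 6.99 times the lowest, and from 9.47 to 18.2 reads in replicate 2, or 3.35 to 6.42 times. Pileups at the raised sites of the cluster had medians of 52 and 62 reads, against 32 and 40 reads at the chromosome's sites without a raised background. The lists hold only stretches whose pileup stood out from the local background, so weak pileups in the cluster would be missing from them. Its lowest pileups were 32 and 36 reads. The higher medians therefore cannot be read as a separate trait of the cluster. Divided by the raised background, the pileups gave low folds, with a median strength of 4.34. The lowest strength on the chromosome, 2.17, was at 38810305 to 38810400, with 32 and 36 reads over 14.0 and 16.3 reads.

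A further 2 shared sites lay inside the cluster, with a background above the limit in replicate 2 only. One of them, at 38855468 to 38856107, had the most reads of the cluster, 193 and 232, and folds of 19.8 and 15.7. The next site beyond the cluster, 77.2 kb from its first site, had backgrounds of 1.32 and 1.86 times the lowest. In replicate 1 the 2 further sites inside the cluster each had a background of 8.80 reads, or 2.95 times the lowest. Outside the cluster, the raised sites were 1 in the sparse zone at 5232273 to 5232733, neighbours at 16854488 to 16854951 and 16855406 to 16855770, and 1 at 24532863 to 24533154. The last had the highest background of the chromosome, 25.5 and 22.5 reads, under pileups of 67 and 77 reads.

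**Figure D5:**
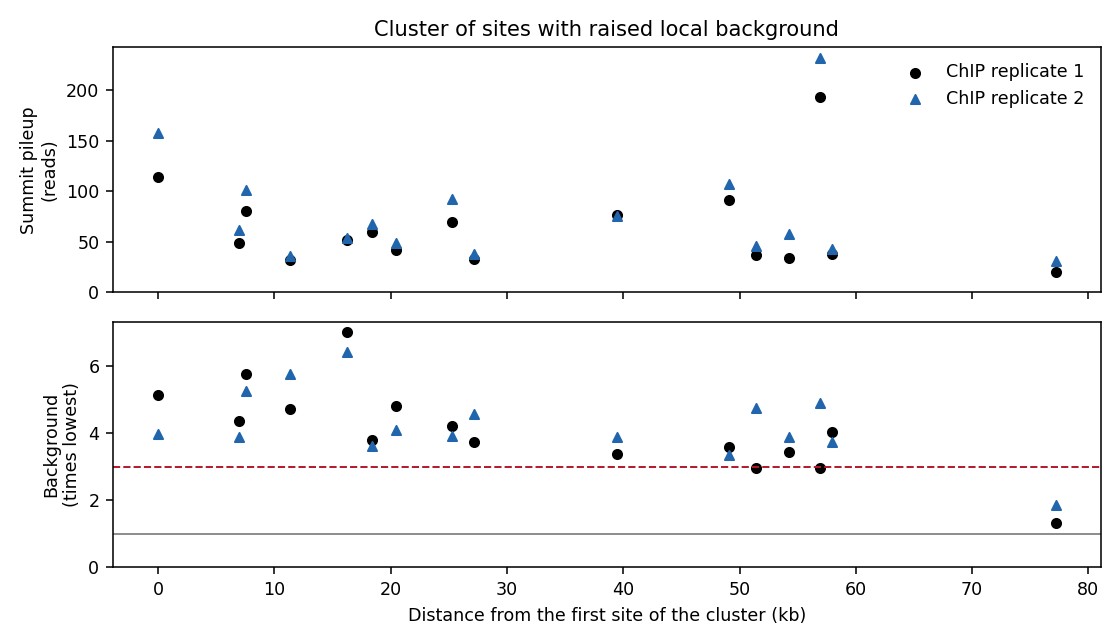
Reads at the summit (top) and background in multiples of the lowest of its list (bottom) for shared sites in and near the cluster, against distance from its first site in kb. Circles are ChIP replicate 1 and triangles ChIP replicate 2; 13 of the sites lie above the dashed line at 3 times in both replicates, and the site at 77.2 kb lies below it in both.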

How the data were processed

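ChIP-seq peak lists of 2 ChIP samples were analysed, 1 list per sample and not pooled. The 2 input samples were not analysed here. The submitters' processing notes list the aligner Bowtie 0.12.7 and the peak caller MACS2. Not given in the sources used here are the MACS2 version, genome build, calling threshold, control and treatment of duplicate reads. The deposited values per peak are the authors': the fold ratio over local background, −log10 p-values and q-values, and a score, which is 10 times the −log10 q-value cut to a whole number. No q-value exceeded 0.00563 in the replicate 1 list or 0.00871 in the replicate 2 list. Coordinates are those of the lists, counted from 1.

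The whole-number pileup behind each peak was computed from fold and p-value, taking fold as (pileup + 1) / (background + 1) and p as a Poisson tail, and matched to within 0.001 for all 48191 and 62340 peaks. The depth of the libraries is unknown beyond these pileups. Chromosome spans run to the last peak end. Replicate pileups were compared by a two-sided exact binomial test scaled by summed pileups, with Benjamini-Hochberg adjustment over all 44959 shared sites. With peaks as rows and 1 library per replicate, this compares libraries. The procedures were tested on simulated data. Python 3.11.15, NumPy 2.4.6, pandas 2.3.3, SciPy 1.17.1 and matplotlib 3.10.9 were used.

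Sites named are the 10 strongest, the strongest peak without a partner in each list, the 3 longest empty intervals, the densest bins, windows and runs, the sites called different, and those with raised background; others are said to be chosen after their values were seen or are described as examples. The chromosome, measures and named lists were chosen with earlier results of these data known. Sequences and genes at the sites were not analysed here.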

Additional observations from a re-analysis of the deposited data

How the results depend on the processing

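Of 70 recomputed values of 12 results, 51 stayed within the limit for their kind and 19 moved past it. The limit was 1.5 times for a count, 1 SD between replicates for a density, ratio or share of strong sites, and the half-width of the Wilson interval for a share with a partner, so 7 of the 19 differed by less than 1.5 times. Chromosome 13 kept the first place by density under each alternative tried. Leaving out either replicate gave 77.2 to 97.2 peaks per Mb, 196 to 418 strong peaks, 5.54% to 9.38% strong, and 89 to 179 runs. The ratio of middle to outer density was 1.47 with outer parts of 10% and 1.44 with 30%. Strong sites numbered 389 at a fold of 15 and 60 at 30. Runs numbered 10 with gaps of at most 2 kb and 183 with 10 kb. Raised sites numbered 32 at 2 times the lowest background, 7 at 4 times, and 4 without the cluster. A required overlap of 50% left 1 site differing between replicates, with partners for 89.9% and 71.4% of the peaks. Summits within 100 bp left 0 such sites and partners for 85.8% and 68.2%. Looser and stricter thresholds move these counts by construction, and why the replicates gave different numbers was not tested. No paired analysis was possible because the input samples have no file here and the ChIP samples form a single group. The planned search for sequence motifs and nearby genes was not run, since no genome or annotation of the files' build was used. With 2 replicates and counting error as the only error, densities are descriptions.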
